A study of Mus musculus with 48 samples.

Results

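Regulatory T cells (Tregs) taken from mice given the IL-2 mutein H16R were compared between animals whose MHC class II had been blocked and animals given an isotype control antibody. The members are the 8 Treg libraries that the sample labels place under H16R, 4 with MHC II block and 4 with isotype, out of 48 libraries in the series. All 8 mice were C57BL/6 females of 8 to 12 weeks. Each received 2 intraperitoneal doses of 500 µg of antibody, on days -1 and 0, and 25 µg of H16R under the skin on day 0, and the spleen was taken on day 4. The blocking antibody was clone M5/114 and the isotype antibody was clone LTF-2. H16R is a human IL-2 with 1 substituted residue that weakens its activity, fused to an Fc domain for a longer life in blood. The other 24 Treg libraries come from mice given PBS, WT IL-2 or the 3x mutein with either antibody, again 4 libraries a group, and 16 libraries hold conventional CD4 T cells (Tcons). Tregs were the CD25+ fraction of a magnetic column and Tcons the fraction that did not bind, so the libraries are bulk RNA of an enriched population and not of sorted single cells. In such libraries, fewer cells of a type and less RNA per cell cannot be told apart. The authors stained small aliquots and report that most samples were largely Foxp3+ after purification.

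MHC class II molecules on dendritic cells, B cells and macrophages display peptides to the T cell receptor (TCR) of CD4 T cells. A TCR that finds its peptide starts kinase, calcium, MAPK and NF-kB signaling and within minutes raises immediate early genes such as the Nr4a and Fos families. IL-2 acts separately, through CD25, CD122 and the common gamma chain to JAK1, JAK3 and STAT5, and Tregs depend on both inputs to persist and to become effector Tregs. The comparison asks which parts of the Treg transcriptome under an attenuated IL-2 differ when contact between the TCR and MHC II is blocked.

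The 8 libraries held 26.73 to 48.68 M expected counts, so that 1 CPM, the count scaled to library size, stood for at least 26.7 counts. Along the first principal component, which carried 50.4% of the variance among the 8, isotype libraries lay from -25.2 to -18.1 and block libraries from 14.4 to 32.8. No pair of libraries of a group agreed within sampling noise, and replicates are separate mice. Treg markers (Foxp3, Il2ra, Ikzf2, Ctla4, Cd3e, Cd4) summed to 5076 to 5248 CPM in isotype Tregs, 4653 to 4973 in block Tregs and 1402 to 1561 in the Tcons of the H16R mice. Markers of other cells were higher with block in most lists. The ranges of summed CPM, isotype first, were 37.1 to 49.5 and 60.3 to 100 for 9 B cell markers, 194 to 445 and 551 to 1222 for 4 plasma cell markers, and 176 to 272 and 366 to 562 for 5 MHC II genes. Myeloid markers (7) went from 13.8 to 16.9 up to 32.7 to 68.1, dendritic cell markers (5) from 5.94 to 8.52 up to 20.6 to 31.5, and NK cell markers (5) from 10.5 to 15.2 up to 23.7 to 38.5. The CD8, erythroid and platelet lists overlapped between the groups, and no marker was at 0 in either group. Counting tested genes with adjusted p under 0.1, 2 of 8 B cell, 4 of 4 plasma cell, 4 of 5 MHC II, 5 of 7 myeloid, 3 of 5 dendritic and 4 of 5 NK markers were higher with block. Without block replicate 3 these counts were 0 for B cells, 0 for MHC II and 1 for myeloid cells, and without isotype replicate 3 they were 1, 0 and 2.

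Of 12392 protein-coding genes tested with edgeR's quasi-likelihood test, 3799 (30.7%) had a Benjamini-Hochberg adjusted p under 0.1, and all calls below use that test and threshold. Block was higher for 1913 (15.4%) and lower for 1886 (15.2%). Most differences were small, with a median absolute log2 fold change of 0.252 among called genes. A log2 fold change of at least 1 was reached by 401 called genes (3.24%), 383 of them higher (3.09%) and 18 lower (0.145%). In 3213 genes (25.9%) the 4 block libraries all lay above or all below the 4 isotype libraries. Leaving out single libraries moved the number of called genes between 2496, without block replicate 3, and 4481, without block replicate 2. The split between directions changed with the scaling, with 2422 genes higher and 1261 lower on total counts without TMM. It was 2161 higher and 1147 lower with limma on log2(FPKM + 1).

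Among genes with a mean above 5 CPM and libraries that did not overlap, the largest fall was in Cxcl2, which encodes a chemokine for neutrophils. Cxcl2 was at 22.1, 24.9, 16.1 and 17.0 CPM with isotype and at 7.71, 7.25, 8.77 and 7.40 with block (log2 fold change -1.36, SE 0.16, adjusted p = 1.79e-06 in edgeR). Cd83, an activation-induced membrane protein, was at 99.7, 103, 57.3 and 91.8 CPM with isotype and at 40.4, 44.8, 44.0 and 37.0 with block (log2 fold change -1.08). Isotype replicate 3 was the lowest isotype library for both genes and still lay above every block library. The other 10 of the 12 largest falls were Nrn1 (-0.93), Gm3667 (-0.85), Areg (-0.83), Penk (-0.82), Maff (-0.81), Klrg1 (-0.78), Nr4a3 (-0.76), Dusp10 (-0.74), Rgcc (-0.74) and Chdh (-0.73). Nrn1 encodes neuritin and Penk proenkephalin, both found in activated Tregs, Areg encodes the tissue repair factor amphiregulin, and Maff, Nr4a3 and Dusp10 belong to the activation response described next. Gzma had the largest rise, and it was followed by Ifitm1 (2.57), Itgax (2.44), Il12rb2 (2.41), Plbd1 (2.38), Dnase1l3 (2.23), Cbfa2t3 (2.18), Fscn1 (2.12), Ggt1 (2.07), Ccl3 (2.07), Mpeg1 (2.00) and Ccl4 (1.95). Itgax (CD11c), Plbd1, Fscn1 and Mpeg1 are known from dendritic cells and macrophages, whose markers were also higher in the block libraries. The part of such cells in these rises was not tested.

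TCR response genes were mostly lower in block Tregs. Of 24 tested, 12 fell and 1 rose, with a median log2 fold change of -0.20 against 0 over all genes. Nr4a1, the orphan nuclear receptor Nur77 used as a reporter of TCR signal strength (chr15:101254269-101274795, GRCm38), was at 1038, 1034, 1010 and 997 CPM with isotype and at 708, 776, 834 and 769 with block. The 2 groups did not overlap (log2 fold change -0.40, SE 0.11, adjusted p = 0.00979). Its relative Nr4a3 was at 104, 104, 80.4 and 100 CPM with isotype and at 55.1, 67.7, 57.0 and 49.1 with block (-0.76, SE 0.15, adjusted p = 0.000936). Nr4a2, the other member of the family, was 73.1, 73.1, 52.8 and 87.3 CPM against 40.4, 51.2, 43.5 and 37.3 (-0.73). All 3 Nr4a genes were therefore below every isotype library in every block library.

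Cd69, an early activation antigen that holds T cells in tissue, was at 594, 579, 630 and 590 CPM with isotype and at 431, 425, 402 and 427 with block (log2 fold change -0.51, SE 0.08, adjusted p = 4.29e-05). Rel encodes c-Rel, an NF-kB subunit that Tregs need, and was at 310, 332, 250 and 347 CPM against 188, 248, 196 and 164 (-0.64, SE 0.15, adjusted p = 0.00474). In Rel the highest block library, replicate 2, came within 2 CPM of the lowest isotype library, replicate 3. Tagap (-0.44), Dusp4 (-0.49), Dusp5 (-0.25), Dusp6 (-0.46), Nfkbid (-0.24) and Spry1 (-0.33) fell too. Spry2, a feedback inhibitor of MAPK signaling like Spry1, was the 1 gene that rose, at 5.02, 4.31, 3.01 and 4.18 CPM with isotype and 8.51, 7.75, 9.83 and 6.10 with block (0.97). The other 11 genes did not pass the test. They include Egr2 (0.05, SE 0.09), Egr3 (0.05, SE 0.09), Myc (0.06, SE 0.09), Irf4 (-0.17, SE 0.11), Tnfrsf9 (-0.12, SE 0.09) and Nfatc1 (0.07, SE 0.05), so that the response genes did not move as 1 block.

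**Figure D1:**
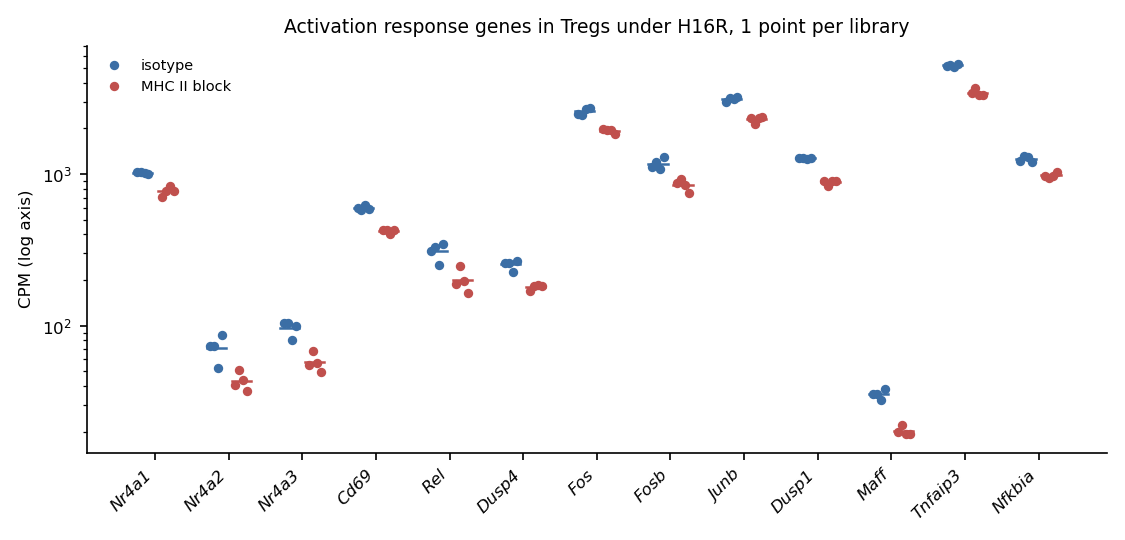
CPM on a log axis of 13 activation response genes in the 4 isotype (blue) and 4 MHC II block (red) Treg libraries under H16R, with 1 point per library and a line at the group mean. All 13 were taken from genes called lower with block, and list members that rose or did not pass are not drawn. The red points lie under the blue points in all 13 genes, by log2 fold changes from -0.36 (Nfkbia) to -0.81 (Maff).

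AP-1 factors and MAPK phosphatases showed the same direction. Of 20 tested, 13 fell and 1, Spry2, rose, with a median of -0.36. Of these called genes, Dusp4, Dusp5, Dusp6, Spry1 and Spry2 are in the TCR response list as well. Fos was at 2484, 2463, 2687 and 2718 CPM with isotype and at 1978, 1951, 1953 and 1842 with block (log2 fold change -0.42, adjusted p = 0.00088). Junb was at 3001, 3184, 3137 and 3226 CPM against 2331, 2131, 2341 and 2388 (-0.45, SE 0.07, adjusted p = 2.67e-05). Fos and Junb encode partners in the AP-1 dimer, and in both the groups stood well apart. Dusp1, a nuclear MAPK phosphatase, was at 1280, 1273, 1256 and 1271 CPM with isotype and at 904, 837, 894 and 897 with block (-0.52, SE 0.07, adjusted p = 9.16e-06). Maff, a small Maf protein, was at 35.4, 35.3, 32.1 and 38.2 CPM against 20.0, 22.2, 19.2 and 19.3 (-0.81). Fosb (-0.46), Mafk (-0.39) and Dusp10 (-0.74) fell as well, whereas Fosl1 (-0.60, SE 0.29), Fosl2 (-0.29, SE 0.17) and Atf3 (0.00, SE 0.20) did not pass.

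Some genes that respond to handling and heat were also lower with block, which is given beside the immediate early genes because tissue dissociation can raise both kinds. These were chosen after their values were seen. Hsph1 was at 127, 136, 126 and 116 CPM with isotype and 83.3, 90.8, 86.8 and 82.9 with block (-0.56), and Dnajb1 (-0.36) and Hsp90aa1 (-0.26) fell. Hspa1a (-1.00, SE 0.58, adjusted p = 0.212) and Hspa1b (-0.97, SE 0.49, adjusted p = 0.152) did not pass, although both did in a fit of the 8 H16R libraries alone (adjusted p = 0.0133 and 0.00897 in edgeR). The part of cell handling in the fall of the immediate early genes was not tested.

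The promoters of the genes that fell are shown for the Nr4a family because the cyclic AMP response element (CRE) and its core are known elements of immediate early promoters. Windows ran from 250 bases before to 50 bases after the start in RefSeq (GRCm38.p6), both strands were searched, and 18 of the 21 TCR response and AP-1 genes that fell had a window. The core TGACG was in 12 of the 18, and in 35.0% of 9764 tested genes with a window and 20.8% of all 32851 windows. The full element TGACGTCA, which contains the core, was in 3 of the 18 (Dusp1, Maff and Nfkbid) and in 3.54% of tested genes. The AP-1 letters TGANTCA were in 0 of the 18 and in 6.09% of tested genes, and 18 genes are too few to tell these shares apart. A match is a description of letters and not a bound site. List members that did not fall were not counted apart, so the counts do not bear on the block effect. The 250 bases before the start follow, with the core on either strand in capitals, where CGTCA is the core read from the other strand.
Nr4a1 (chr15:101266596-101266845, plus strand): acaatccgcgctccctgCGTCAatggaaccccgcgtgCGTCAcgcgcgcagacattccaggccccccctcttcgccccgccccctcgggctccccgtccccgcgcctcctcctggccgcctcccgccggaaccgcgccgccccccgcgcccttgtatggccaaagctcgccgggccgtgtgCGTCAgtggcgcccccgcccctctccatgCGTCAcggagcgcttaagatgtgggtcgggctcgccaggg
Nr4a3 (chr4:48045055-48045304, plus strand): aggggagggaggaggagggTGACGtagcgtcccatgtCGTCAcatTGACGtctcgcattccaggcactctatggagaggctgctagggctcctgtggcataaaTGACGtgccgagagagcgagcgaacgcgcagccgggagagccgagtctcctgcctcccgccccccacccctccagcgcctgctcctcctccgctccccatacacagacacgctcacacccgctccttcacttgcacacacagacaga
Both hold 4 cores, at bases -233, -213, -69 and -40 in Nr4a1 and at bases -231, -213, -205 and -147 in Nr4a3, counted from the start.

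Of 24 NF-kB and TNF receptor genes, 6 fell and 2 rose, counts that together lie near the 30.7% of all genes. Inhibitors of the pathway moved in both directions. Tnfaip3 (A20) was at 5167, 5273, 5081 and 5321 CPM with isotype and at 3443, 3698, 3318 and 3319 with block (log2 fold change -0.60, SE 0.10, adjusted p = 0.000108). Nfkbia (IkBa) was at 1212, 1319, 1304 and 1199 CPM against 973, 941, 976 and 1030 (-0.36, SE 0.05, adjusted p = 1.67e-05). In neither gene did any block library reach an isotype library. Bcl3, a nuclear IkB protein, rose (0.53, SE 0.11), as did the inhibitor Nfkbib (0.18, SE 0.06, but 0.14 and not past the threshold without block replicate 4), and the inhibitor Nfkbie did not pass (-0.11, SE 0.05). The subunits Nfkb1 (-0.04, SE 0.04), Rela (-0.04, SE 0.04) and Relb (0.07, SE 0.08) did not pass.

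In the TCR complex and proximal signaling list, 2 of 22 fell, Plcg1 (-0.23, SE 0.04) and Fyn (-0.15, SE 0.04), and Zap70 rose (0.28, SE 0.06). Without block replicate 2, 4 fell and 2 rose. The median was 0.01, and Cd3d, Cd3e, Cd3g, Cd247, Cd4 and Lck all had log2 fold changes between 0.00 and 0.06. Of 16 calcium and NFAT genes, 3 fell, with Stim2 at -0.17 and Orai2 at -0.14 among them. None of the 16 was called without both libraries numbered 3. Calls in this list and in the TCR complex list were a smaller share than the 30.7% of all tested genes. Among 16 genes of the IL-2 receptor and STAT5, 5 rose and 4 fell, with a median of -0.02. Il2ra (CD25), on which the cells were purified, was at 480, 496, 551 and 447 CPM with isotype and 476, 465, 494 and 508 with block (-0.02, SE 0.09, adjusted p = 0.88). Il2rb (CD122) rose slightly, from 1106, 1003, 1022 and 1031 CPM to 1157, 1121, 1259 and 1243 (0.20, SE 0.06). Without both libraries numbered 3, Il2rb did not pass the threshold (0.17, adjusted p = 0.138 in edgeR). The kinase Pim2 (0.50, SE 0.11) and the cytokine gene Osm (0.56, SE 0.13) rose too. Jak1 (-0.21, SE 0.05) and Pim1 (-0.21, SE 0.05) fell, and the STAT5-induced inhibitors Cish (-0.11, SE 0.06) and Socs1 (0.01, SE 0.08) did not pass. Without isotype replicate 4 the counts in this list were 3 and 2, and 3 rose without block replicate 4.

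Treg identity genes were lower in part. Of 17 tested, 7 fell and 1 rose, with a median of -0.14. Foxp3, the factor that defines the lineage, was at 1109, 1165, 1232 and 1120 CPM with isotype and at 1035, 1058, 1126 and 1151 with block, and the groups overlapped (log2 fold change -0.08, SE 0.06, adjusted p = 0.292). Ctla4, which removes CD80 and CD86 from antigen presenting cells, did not pass either (-0.04, SE 0.10, adjusted p = 0.777). Ikzf2 (Helios) was at 979, 966, 957 and 1067 CPM with isotype and at 758, 849, 790 and 703 with block (-0.36, SE 0.10, adjusted p = 0.0146). Nrp1 (neuropilin-1), at 277, 269, 266 and 291 CPM against 220, 209, 200 and 210, fell by 0.39 on the log2 scale. Lrrc32 (GARP), which presents latent TGF-beta, fell by 0.23, and the ectoenzyme gene Entpd1 (CD39) rose (0.37, SE 0.07).

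The effector Treg list held both rises and falls. Of 26 tested, 14 rose and 6 fell, with a median of 0.28. Il12rb2, the signaling chain of the IL-12 receptor, was at 3.61, 3.75, 4.21 and 2.24 CPM with isotype and at 16.9, 20.1, 18.6 and 17.7 with block, 5.30-fold higher (log2 fold change 2.41, SE 0.15, adjusted p = 5.9e-12). Tbx21 (T-bet), the factor that directs type 1 programs, was at 22.6, 17.8, 22.5 and 21.0 CPM against 50.2, 49.4, 50.5 and 50.2 (1.25, SE 0.10, adjusted p = 1.25e-09). The 4 block libraries of Tbx21 differed from each other by about 1 CPM. Gzmb, the cytotoxic protease granzyme B, was at 184, 164, 252 and 111 CPM with isotype and at 471, 442, 544 and 681 with block, 3.01-fold higher (1.59, SE 0.22, adjusted p = 1.75e-05). Lag3, an inhibitory receptor that itself binds MHC II, was at 174, 170, 207 and 219 CPM against 409, 409, 436 and 436 (1.13, SE 0.19, adjusted p = 0.000203). Each of these 4 genes was higher in every block library than in any isotype library. Havcr2 (TIM-3) rose by 0.85, S100a4 by 0.74, the chemokine receptor gene Cxcr3 by 0.66, Il10 by 0.46, Prdm1 (Blimp-1) by 0.40 and Id2 by 0.38 on the log2 scale.

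The 6 members of the list that fell include Areg, Klrg1, Il1rl1 and Gata3. Areg was at 69.0, 67.1, 58.7 and 66.5 CPM with isotype and at 36.2, 32.2, 39.7 and 38.3 with block (log2 fold change -0.83, SE 0.11, adjusted p = 1.11e-05). Klrg1, a receptor of terminally differentiated Tregs, was at 195, 199, 162 and 162 CPM against 98.3, 90.9, 131 and 98.4 (-0.78). Il1rl1, the IL-33 receptor ST2, fell by 0.40 and Gata3, the factor that drives it, by 0.26. Areg, Klrg1, Il1rl1 and Gata3 were each below the isotype range in every block library. Icos (0.10, SE 0.11), Tigit (0.19, SE 0.10) and Batf (0.13, SE 0.08) did not pass.

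**Figure D2:**
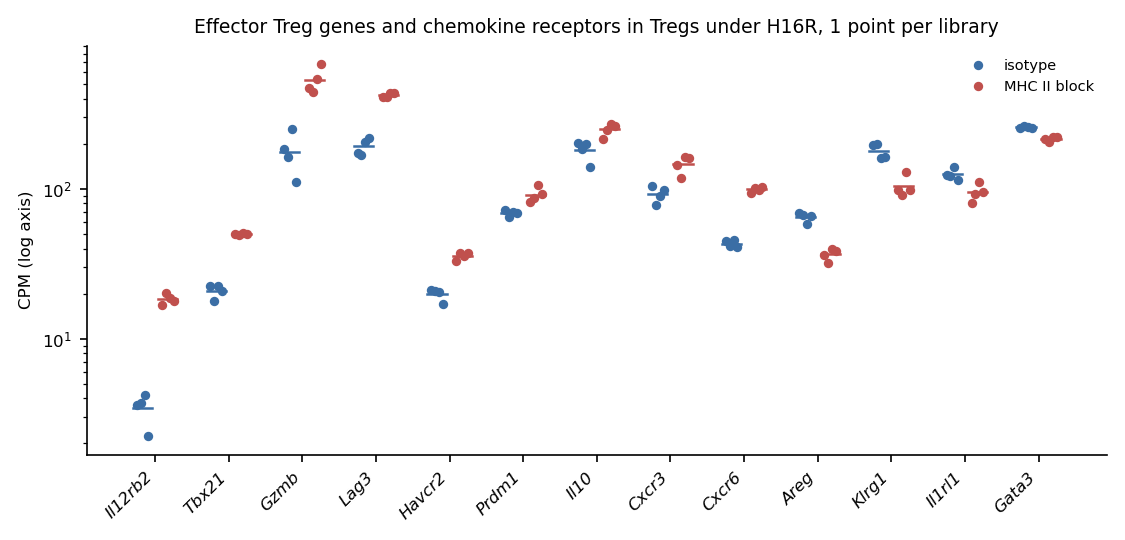
CPM on a log axis of 13 effector Treg and chemokine receptor genes in the 4 isotype (blue) and 4 MHC II block (red) libraries, with 1 point per library and a line at the group mean. All 13 were taken from called genes, and list members that did not pass are not drawn. Il12rb2 to Cxcr6 lie higher with block and Areg, Klrg1, Il1rl1 and Gata3 lie lower, without overlap between the colors in any of the 13.

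Genes of resting and recirculating Tregs were lower with block, 9 of 15 tested, and 1 was higher (median -0.25). Id3, a partner of E proteins lost as Tregs become effectors, was at 36.5, 37.8, 38.1 and 36.2 CPM with isotype and at 25.4, 23.2, 20.8 and 24.6 with block (log2 fold change -0.66, SE 0.08, adjusted p = 2.01e-06). Ccr7, which guides T cells into lymphoid tissue, was at 269, 250, 219 and 270 CPM against 170, 183, 142 and 158 (-0.63, SE 0.13). Both genes were lower in every block library. Klf2 (-0.38), Foxp1 (-0.35), Lef1 (-0.26) and Foxo1 (-0.20) fell, and S1pr1 (-0.06, SE 0.07) did not pass.

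Of 26 chemokine receptor and adhesion genes, 8 rose and 6 fell. Among those that rose are receptors of inflamed tissue. Cxcr6 was at 45.0, 41.9, 45.4 and 40.7 CPM with isotype and 94.1, 102, 97.7 and 103 with block (log2 fold change 1.2, SE 0.19). All block libraries of Cxcr6 lay above the isotype libraries. Ccr2 rose by 0.87 on the log2 scale. Cxcr4, the receptor for CXCL12, fell by 0.45 and the integrin gene Itga4 by 0.40.

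Cytokine genes were more often higher than lower, 9 against 2 of 19 tested, with a median of 0.46. Ifng was at 39.8, 36.9, 36.7 and 39.3 CPM with isotype and at 72.7, 77.0, 69.6 and 67.5 with block (log2 fold change 0.91, SE 0.11, adjusted p = 3.03e-06). Tnf rose from 50.3, 53.4, 51.7 and 53.3 CPM to 87.2, 77.4, 70.7 and 76.9 (0.58). Ifng and Tnf, the classical type 1 cytokines, were each higher in all block libraries. Csf2 (1.04, SE 0.24) and Tgfb3 (1.02, SE 0.20) rose from low levels. Il21 was at 3.34, 3.5, 4.49 and 11.3 CPM with isotype and at 14.8, 15.3, 11.1 and 14.4 with block, so that isotype replicate 4 reached the block range (1.3, SE 0.39, adjusted p = 0.0184). Areg and Penk were the 2 that fell.

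Because granzymes, Ifng and Il12rb2 are also NK cell genes, NK markers are set beside them. Gzma was at 6.92, 9.82, 9.12 and 5.02 CPM with isotype and at 102, 77.3, 90.5 and 54.7 with block, 10.5-fold higher (log2 fold change 3.40, SE 0.30, adjusted p = 8.4e-09). The NK receptors Klrd1 (2.25, SE 0.18) and Ncr1 (1.87, SE 0.21) rose in the same libraries, with Ncr1 at 2.00 to 2.97 CPM with isotype and 5.61 to 11.2 with block. The NK sum of isotype Tregs from PBS mice, 32.6 to 47.4 CPM, compares with 23.7 to 38.5 CPM in block Tregs under H16R. There Gzmb was at 8.25 to 15.3 CPM and Il12rb2 at 3.14 to 4.68, against 442 to 681 and 16.9 to 20.1 in block Tregs under H16R. Tcons of the H16R mice with block had an NK sum of 155 to 167 CPM and Gzmb at 104 to 109, while their Il12rb2 stood at 24.4 to 33.3. These groups differ from block Tregs under H16R in treatment or cell fraction as well. The part of NK cells in the rises of Gzmb, Gzma and Il12rb2 was not tested, nor was that of plasma cells, whose Jchain went from 174 to 402 CPM up to 505 to 1106.

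**Figure D3:**
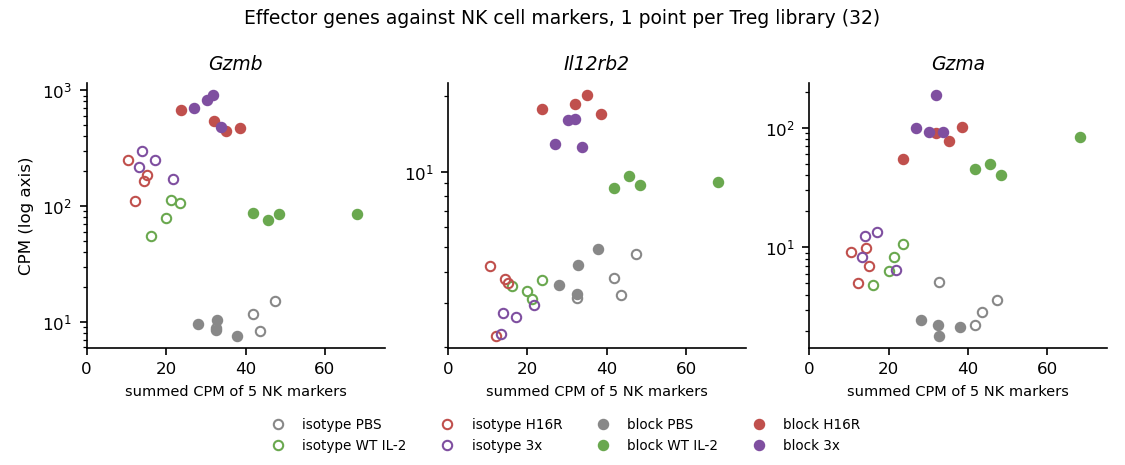
CPM of Gzmb, Il12rb2 and Gzma on log axes against the summed CPM of 5 NK markers in the 32 Treg libraries, colored by treatment, open for isotype and filled for MHC II block. Isotype PBS libraries sit at NK sums of 32.6 to 47.4 with Gzmb at 8.25 to 15.3 CPM, and filled H16R points sit at 23.7 to 38.5 with Gzmb at 442 to 681.

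Genes of dividing cells were higher in block Tregs. Of 27 mitotic genes tested, 25 rose and 0 fell, with a median log2 fold change of 0.48, and Cenpf (0.29, SE 0.15) and Cks2 (-0.06, SE 0.08) did not pass. None of the 27 fell at an unadjusted p under 0.05 or in DESeq2 or limma, and 19 of the 27 rose without block replicate 3. Top2a, the topoisomerase that untangles chromosomes, was at 166, 154, 155 and 133 CPM with isotype and at 214, 203, 219 and 202 with block (0.46, SE 0.11, adjusted p = 0.00535). Birc5 (survivin) was at 25.7, 24.5, 25.6 and 19.5 CPM against 37.5, 34.8, 46.6 and 38.3 (0.72, SE 0.16, adjusted p = 0.00243). The groups did not overlap in either gene, and isotype replicate 4 was lowest in both. Ube2c (0.73) and Cdc20 (0.67), which act at the exit from mitosis, were among the largest rises. Of 26 S phase genes, 19 rose and 0 fell (median 0.34), with 0 lower at an unadjusted p under 0.05 and 0 in DESeq2. Rrm2, a subunit of ribonucleotide reductase, was at 47.3, 45.8, 47.6 and 35.0 CPM with isotype and at 70.1, 59.5, 74.5 and 65.0 with block (0.62, SE 0.14). E2f1, the factor that turns on S phase genes, rose by 0.67 and the licensing factor Cdc6 by 0.63, while Pcna did not pass (0.01, SE 0.06). The part of other cells, whose markers were also higher with block, in the rises of both lists was not tested.

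Energy genes were higher to a smaller extent. Of 60 subunits of oxidative phosphorylation, 26 rose and 0 fell, with a median of 0.19 (34 higher and 0 lower at an unadjusted p under 0.05, and 30 and 0 in DESeq2). Cox5a was at 62.4, 58.5, 68.0 and 57.8 CPM with isotype and at 77.5, 72.0, 78.8 and 80.5 with block (log2 fold change 0.32, SE 0.10, adjusted p = 0.0175). This count rested on single libraries, being 12 without isotype replicate 4, 13 without block replicate 4, 14 without block replicate 3, and 40 without block replicate 2. Of 20 glycolysis genes, 10 rose and 1 fell (median 0.17). Ldha, which makes lactate, was at 563, 550, 648 and 505 CPM against 701, 646, 744 and 795 (0.35, SE 0.08, adjusted p = 0.00193), with block replicate 2 just under isotype replicate 3. Slc16a3, a lactate exporter, rose more (0.73, SE 0.14).

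**Figure D4:**
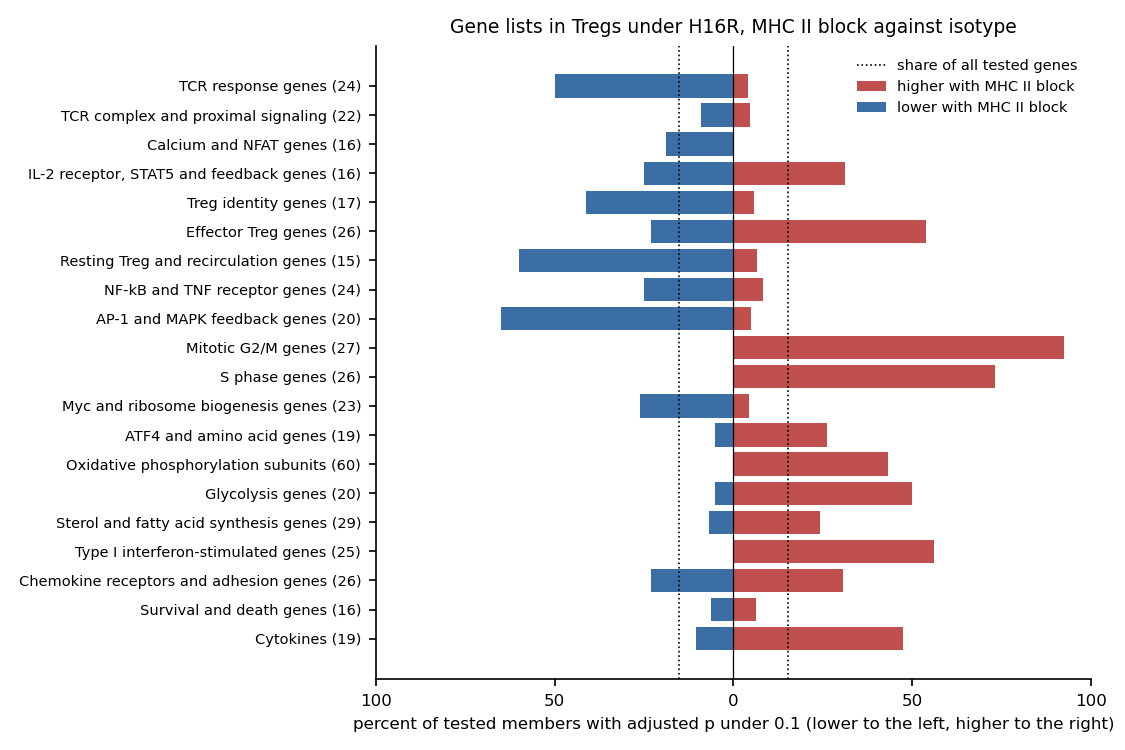
Percent of the tested members of each of 20 gene lists with adjusted p under 0.1, lower with MHC II block to the left (blue) and higher to the right (red), with the number tested in parentheses and dotted lines at the shares of all tested genes (15.2% and 15.4%). The mitotic list (25 of 27) and the S phase list (19 of 26) reach farthest to the right, and the AP-1 list (13 of 20) and the resting list (9 of 15) farthest to the left.

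Interferon-stimulated genes were higher with block, 14 of 25 tested and 0 lower in edgeR, with a median of 0.27 (15 and 0 at an unadjusted p under 0.05, 14 and 0 in DESeq2). Ifit3, an antiviral protein, was at 11.3, 12.9, 15.1 and 15.4 CPM with isotype and at 44.0, 44.0, 27.2 and 30.9 with block (log2 fold change 1.41, SE 0.15, adjusted p = 4.51e-07). Ifit3b (1.65) is a near-identical copy of Ifit3, so that the split of reads between the pair is uncertain. Ifit1 was at 32.9, 33.0, 36.2 and 38.1 CPM with isotype and at 77.5, 79.5, 56.3 and 61.0 with block (0.96, SE 0.15, adjusted p = 7.66e-05). In all these genes block replicates 1 and 2 were higher than block replicates 3 and 4. Isg15, a ubiquitin-like modifier, rose by 0.73, Oasl2 by 0.94 and Rtp4 by 0.55 on the log2 scale. Factors that carry the signal did not pass, with Stat2 at 0.08 (SE 0.08), Irf9 at -0.04 (SE 0.06) and Irf7 at 0.11 (SE 0.09).

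The interferon-stimulated response element is bound by a complex that holds STAT2 and IRF9, and its letters were searched as a pair of TTTC runs with any 2 bases between them in the same windows and on both strands. Of the 14 genes that rose, 10 had a window and 6 of these held the letters (Ifih1, Ifit1, Ifit3, Ifit3b, Isg15 and Oas3), as did 3.99% of tested genes and 3.44% of all windows. The 18 genes of the activation response that fell held it in 0 windows, too few genes to tell a share of 3.99% from 0. Interferon genes that did not rise were not counted apart, so the counts do not bear on the block effect. The 250 bases before the start of the 2 genes with the values above are shown with the element in capitals.
Ifit1 (chr19:34640639-34640888, plus strand): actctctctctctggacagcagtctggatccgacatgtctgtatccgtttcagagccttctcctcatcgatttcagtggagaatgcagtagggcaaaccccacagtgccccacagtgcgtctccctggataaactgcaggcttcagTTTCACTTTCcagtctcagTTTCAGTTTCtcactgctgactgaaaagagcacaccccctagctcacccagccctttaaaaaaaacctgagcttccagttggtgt
Ifit3 (chr19:34583279-34583528, plus strand): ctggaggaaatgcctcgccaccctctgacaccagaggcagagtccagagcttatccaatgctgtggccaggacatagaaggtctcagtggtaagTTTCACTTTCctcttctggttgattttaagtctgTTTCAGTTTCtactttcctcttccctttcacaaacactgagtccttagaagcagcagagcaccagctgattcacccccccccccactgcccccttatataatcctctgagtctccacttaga
Each holds 2 elements, first bases at -104 and -85 in Ifit1 and at -156 and -122 in Ifit3.

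The remaining lists changed less or in both directions. The amino acid, sterol and Myc lists had 6 of 19, 9 of 29 and 7 of 23 members called in either direction, shares near the 30.7% of all genes. Of 19 amino acid and ATF4 genes tested, 5 rose and 1, Atf4 itself, fell (-0.29, SE 0.04), and the rises included Pycr1 (1.58, SE 0.31) and Chac1 (1.67, SE 0.37), both at or under 5.67 CPM. Pycr1 was highest in block replicate 3, at 5.67 CPM, where plasma cell markers were also highest, and without that library 2 of the list rose, or 3 without isotype replicate 1 or 4. Of 29 sterol and fatty acid synthesis genes, 7 rose and 2 fell, with the mevalonate pathway enzymes Fdps (0.64, SE 0.12) and Pmvk (0.60, SE 0.10) higher and the sensor Insig1 lower (-0.33, SE 0.07). Without block replicate 4, or without isotype replicate 4, 4 rose. In the Myc and ribosome biogenesis list, 6 of 23 fell and 1 rose, with Odc1 at -0.31 (SE 0.08) and Nat10 at 0.20 (SE 0.04), and 3 fell without block replicate 3. Of 16 survival and death genes, Bak1 rose (0.33, SE 0.10) and Pmaip1 (Noxa) fell (-0.38, SE 0.08), both promoters of cell death. This is a smaller share than the 30.7% of all genes, and Bcl2 (-0.15, SE 0.09) and Mcl1 (-0.01, SE 0.04) did not pass.

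The same contrast was fitted in the other treatments, which share no library with H16R. Among the isotype WT IL-2 libraries, 2 carry the same mouse number in the labels (replicates 3a and 3b), so that this group may hold 3 mice. These 2 libraries were kept apart, since they differed more (chi-square of 33.2 per gene) than the other pairs of the group (7.26 to 31.3). Block against isotype called 1751 genes (14.1%) under PBS, 744 higher (6.00%) and 1007 lower (8.13%). It called 4158 (33.6%) under WT IL-2, 2259 higher (18.2%) and 1899 lower (15.3%), and 6705 (54.1%) under 3x, 3368 higher (27.2%) and 3337 lower (26.9%). Of the 3799 genes called under H16R, 3316 were also called in the same direction under 3x, 87.3% of the H16R genes and 49.5% of the 3x genes, and 9 in the opposite direction. With WT IL-2, 1158 were shared in the same direction (30.5% and 27.8%) and 333 in the opposite one, and with PBS 474 (12.5% and 27.1%) and 203. Across the 12392 genes, which are not independent replicates, the log2 fold changes under H16R correlated with those under PBS, WT IL-2 and 3x at r = -0.18, 0.65 and 0.80.

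The TCR response list was lower with block in all 4 treatments, with medians of -0.42 (PBS), -0.37 (WT IL-2), -0.20 (H16R) and -0.35 (3x) and with 14, 17, 12 and 14 of 24 genes called lower. Nr4a1 fell by 0.75 under PBS, by 0.72 under WT IL-2 and by 0.76 under 3x, and Junb by 0.46, 0.48 and 0.58 on the log2 scale. Effector genes had medians of -0.09, -0.39, 0.28 and 0.52 in the same order, below 0 under PBS and WT IL-2 and above 0 under both muteins. Mitotic genes had medians of 0.10, -0.08, 0.48 and 0.56, and 0, 0, 25 and 26 of 27 were called higher. S phase medians were -0.08, -0.06, 0.34 and 0.39. Of 25 interferon genes, 8, 12, 14 and 18 were called higher, and 0, 2, 0 and 0 lower. Their differences between treatments turned on single libraries. Against PBS, 4 had a more negative block effect under H16R and 0 a more positive one, beside 8.47% and 10.6% of all tested genes. The counts were 1 and 4 without block PBS replicate 3. Without isotype H16R replicate 4 or block H16R replicate 3, 1 was more negative. Against WT IL-2, 3 were more positive and 3 more negative, near the 12.6% and 10.9% of all tested genes. Without block H16R replicate 3 or 4, 1 was more negative.

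**Figure D5:**
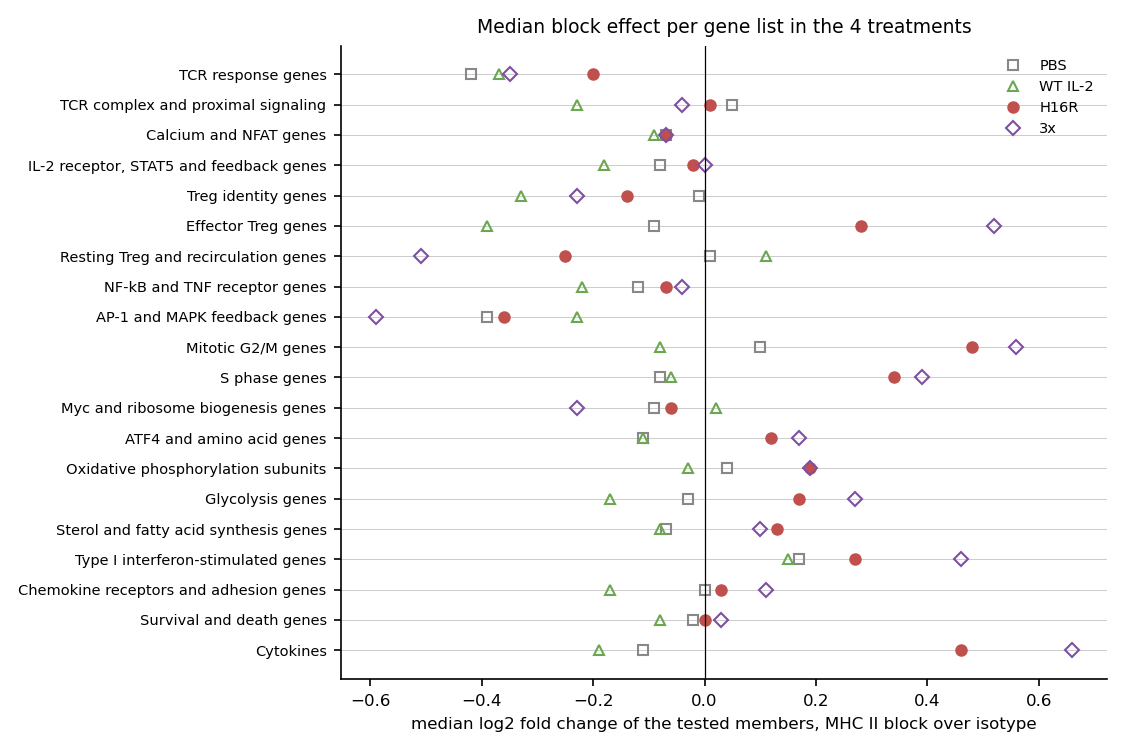
Median log2 fold change of MHC II block over isotype for the tested members of 20 gene lists, with 1 marker each for PBS, WT IL-2, H16R and 3x. H16R and 3x lie to the right of PBS and WT IL-2 in the effector, mitotic and S phase lists, while the TCR response list lies left of 0 in all 4 treatments.

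Whether the block effect itself differed was tested with interaction contrasts. It differed between H16R and PBS in 2363 genes (19.1%), with a more positive effect under H16R in 10.6% of tested genes and a more negative one in 8.47%. Between H16R and WT IL-2 it differed in 2908 genes (23.5%; 12.6% positive and 10.9% negative) and between H16R and 3x in 285 (2.30%; 1.03% positive and 1.27% negative). The last count was 98 without block 3x replicate 4 and 692 without block 3x replicate 2. A low count of such genes does not show that the muteins acted alike.

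Against WT IL-2, 18 of 26 effector genes had a more positive block effect under H16R and 1 a more negative one. Il10 fell with block under WT IL-2 (log2 fold change -0.94) and rose under H16R, a difference of 1.40 (SE 0.20, adjusted p = 5.17e-05). The inhibitory receptors Lag3 (1.98, SE 0.28) and Tigit (1.14, SE 0.14) and the costimulator Icos (0.91, SE 0.16) also had a more positive effect under H16R. Lag3 was at -0.84 under WT IL-2 and rose under H16R, where Tigit and Icos did not pass the test. Gzmb differed by 1.67 (SE 0.32), Tbx21 by 1.04 (SE 0.14) and Il12rb2 by 1.01 (SE 0.20). Il12rb2 had risen under WT IL-2 as well (1.40). Ctla4 (0.71, SE 0.14) differed too, with a fall under WT IL-2 (-0.75). Of 24 TCR response genes, 8 had a more positive block effect under H16R than under WT IL-2, among them Tnfrsf9 (0.64), Dusp4 (0.56) and Nfatc1 (0.52), and 1 a more negative one, whereas the Nr4a1 (0.31, SE 0.15) and Junb (0.03, SE 0.09) differences did not pass. Mitotic and S phase genes differed in 20 of 27 and 21 of 26, and both counts were 11 without isotype WT replicate 1 and 11 without isotype H16R replicate 4, with 12 S phase genes left without block H16R replicate 3. Block WT replicate 1 had the highest myeloid sum of the series' Treg libraries, 638 CPM, and without it the effector count was still 18, as it was without isotype WT replicate 3a or 3b. Other markers moved with block under WT IL-2. The Treg marker sum was 4770 to 5367 CPM with isotype and 3094 to 4158 with block, all 6 Treg markers fell (median -0.30), and 4 of the 6 had a more positive block effect under H16R. Plasma cell sums were 635 to 771 and 1541 to 3216 CPM, and NK sums 16.1 to 23.6 and 41.8 to 68.1. The part of a lower Treg share in the differences from WT IL-2 was not tested. The count of genes in this contrast was 2227 without replicate 3a and 3095 without 3b.

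Against PBS, 10 of 26 effector genes and 18 of 26 S phase genes had a more positive block effect under H16R, and 0 had a more negative one in either list (1 effector gene and 0 S phase genes at an unadjusted p under 0.05, and 0 and 0 in DESeq2). Il12rb2 differed by 2.29 (SE 0.21, adjusted p = 9.4e-08), Gzmb by 1.87 (SE 0.37), Tbx21 by 1.5 (SE 0.14) and Ifng by 1.2 (SE 0.16), and none of these 4 passed the test under PBS alone. Id3 had a more negative block effect under H16R (-0.45, SE 0.11). Of 24 TCR response genes, 5 had a more positive block effect under H16R than under PBS and 2 a more negative one. The shares of all tested genes were 10.6% and 8.47%. The positive count was 3 without block H16R replicate 3, and the negative count 0 without block PBS replicate 1. Markers of other cells differed in the same contrast, with 8 of 8 B cell, 4 of 4 plasma cell, 5 of 5 NK, 5 of 5 MHC II, 5 of 7 myeloid, 3 of 5 dendritic and 1 of 2 CD8 markers more positive under H16R, and 2 of 6 Treg markers were more negative. Isotype PBS replicate 1 stood apart with a B cell sum of 844 CPM. Without that library the counts were 7 effector, 13 S phase, 3 B cell, 3 myeloid and 0 CD8 genes, and 0 Treg markers were more negative. Without block H16R replicate 3, 5 B cell and 2 myeloid markers were more positive. Of 27 mitotic genes, 5 had a more positive block effect under H16R than under PBS, and single libraries left out moved this count from 1, without isotype PBS replicate 1, isotype H16R replicate 4 or block H16R replicate 3, to 13, without isotype PBS replicate 4. The part of these cells in the differences was not tested.

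Against 3x, 4 of 26 effector genes had a less positive block effect under H16R and 0 a more positive one (8 and 0 at an unadjusted p under 0.05, 5 and 0 in DESeq2). Pdcd1 (PD-1) differed by -0.81 (SE 0.15, adjusted p = 0.00653), Prdm1 by -0.52 (SE 0.12), Batf by -0.48 (SE 0.12) and Maf by -0.46 (SE 0.13), and 2 of the 4 calls were left without block 3x replicate 1 or without block 3x replicate 4, and 8 were made without block 3x replicate 2. Bcl3 differed by -0.72 (SE 0.16) and the type 2 cytokine gene Il4 by -2.0 (SE 0.36), with a block effect of 2.74 under 3x. Ccr7 fell less under H16R than under 3x, by 0.94 (SE 0.18, adjusted p = 0.00761). Of the mitotic, S phase and oxidative phosphorylation genes, 0 differed between the muteins in edgeR and 0 in DESeq2, and at an unadjusted p under 0.05 only 2 S phase genes did, 1 in each direction. For Tbx21 the difference was -0.34 (SE 0.14), for Gzmb -0.05 (SE 0.31) and for Il12rb2 -0.04 (SE 0.20), none past the threshold. Of 24 TCR response genes, 4 had a more positive block effect under H16R than under 3x and 0 a more negative one. The shares of all tested genes were 1.03% and 1.27%. The counts were 7 and 2 at an unadjusted p under 0.05 and 5 and 0 in DESeq2. With 1 library left out the positive count ranged from 1 to 7.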

How the data were processed

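RNA of 32 Treg and 16 Tcon libraries was sequenced, and groups were taken from the sample labels. The labels number the mice of a group, so that p-values measure the spread between mice, except that 2 isotype WT Treg libraries (here 3a and 3b) carry the same mouse number. They were kept as separate replicates, and if they are 1 mouse that group holds 3. The authors aligned reads to GRCm38 (B38) with OSA, part of Omicsoft Array Suite, and deposited expected counts from Omicsoft's RSEM, without normalization. FPKM values, which the authors deposited from the same estimates, are divided by transcript length and depth. Their DESeq2 1.30.1 tables hold the authors' own fold changes and p-values and were not used.

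Expected counts were rounded and analysed with edgeR 4.0.16 in R 4.3.3. The filter asked for more than 0.5 CPM in 4 or more Treg libraries and for a protein-coding entry in GENCODE vM21 (96.6% of gene names matched). Genes with an empty cell in any Treg library, 29 of them coding, were left out. A quasi-likelihood model of 8 groups was fitted to the 32 Treg libraries after TMM scaling, with Benjamini-Hochberg adjustment over 12392 genes and a threshold of 0.1. CPM are scaled by TMM. Standard errors come from the F statistic. Total expected counts ran from 18.28 to 51.24 M per Treg library, and a gene at 1 CPM in the smallest had 18.3 counts. Interactions subtract the block effect of another treatment from that under H16R. The scripts were tested on simulated counts.

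Members, the 20 gene lists and 10 marker lists were chosen with earlier results of these data known. Named genes are list members, the 12 largest rises and 12 largest falls above 5 CPM whose groups did not overlap, and, above the same 5 CPM, the 5 largest differences in each direction of each interaction. The heat response genes were chosen after their values were seen. Lists are described by counts and medians without a test. Alternatives were RLE scaling, total counts, other filters, all biotypes, empty cells as 0, DESeq2 1.42.0, limma 3.58.1 on log2(FPKM + 1) and log2(FPKM + 0.1), thinning to the smallest library, fewer groups, a replicate block and single libraries left out. Leaving out both H16R libraries numbered 3 was added after the data were seen. Replicate numbers were checked for pairing, and the correlations of the deviations of same-numbered libraries were 0.02, 0.04, -0.08 and -0.16, so the numbers were not taken to pair mice. Promoter sequences are from RefSeq on GRCm38.p6. Results of some genes are not reported here.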

Additional observations from a re-analysis of the deposited data

Results flagged for a closer look

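In each H16R group of 4 libraries, the genes named in the text were screened for 1 library far from the other 3 (past Dixon's critical value), which chance gives in about 1 of 20 groups. Of 318 groups screened, 2 for each of 159 genes, 13 had such a library, which is no more than that chance rate. In isotype Tregs, replicate 4 was apart for Il21 (11.3 CPM, others 3.34 to 4.49), Rrm2 (35.0 CPM) and Bcl2 (130 CPM), and Il21 was the gene whose groups overlapped through that library. Isotype replicate 3 was apart for Ifitm1 (12.7 CPM, still under every block library) and Pmvk (18.4 CPM), isotype replicate 2 for Stim2 (91.3 CPM) and Fosl1 (0.62 CPM), and isotype replicate 1 for Batf (87.0 CPM). In block Tregs, replicate 2 was apart for Ccl3 (57.2 CPM, others 34.4 to 35.6), Dusp10 (149 CPM), Egr3 (22.4 CPM) and Dusp1 (837 CPM), and replicate 1 for Dusp4 (169 CPM).

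The block effect under H16R differed, by the interaction test, from that under PBS in 2363 genes, under WT IL-2 in 2908 and under 3x in 285. Against PBS, Il12rb2 (2.29), Gzmb (1.87), Tbx21 (1.5) and the cytokine gene Ifng (1.2) had a more positive log2 effect under H16R. Id3 (-0.45) had a more negative one. Among genes with a mean above 5 CPM, as for all the largest differences given here, the 4 largest positive differences from PBS were Lyz2 (4.39), Scd1 (4.35), Gzma (4.11) and Pax5 (3.52), and the 5 largest negative ones Car1 (-1.96), Pgpep1l (-0.91), Actn2 (-0.88), Gm14085 (-0.87) and Ifit1 (-0.87). Lyz2 is a myeloid gene and Pax5 a B cell gene, and isotype PBS replicate 1 held the highest sums of B cell and MHC II markers among the PBS libraries. Without that library the Pax5 difference was 2.16 and did not pass (adjusted p = 0.29 in edgeR), and without block PBS replicate 3 Car1 was at -1.55 (adjusted p = 0.113 in edgeR). The part of those cells in these differences was not tested.

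From WT IL-2, the effect differed in Lag3 (1.98), Gzmb (1.67), Il10 (1.40), Tigit (1.14), Tbx21 (1.04), Il12rb2 (1.01), Icos (0.91), Ctla4 (0.71), Tnfrsf9 (0.64), Dusp4 (0.56) and Nfatc1 (0.52). The largest positive differences were Spp1 (2.55), Gcg (2.13), Fam20a (2.12), Vdr (2.08) and Ifitm1 (1.98). Without isotype WT replicate 2 the Spp1 difference was 1.26 and did not pass (adjusted p = 0.303 in edgeR). Mrc1 (-3.28), Lrp1 (-3.12), Trf (-2.06), Cfp (-1.63) and Nfam1 (-1.27), most of them genes of macrophages, were the largest negative ones, beside a myeloid marker sum of 638 CPM in block WT replicate 1. Without that library none of these 5 passed, with Mrc1 at -0.25, Lrp1 at -0.15, Trf at -0.47, Cfp at -0.20 and Nfam1 at -0.45.

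From 3x, the effect differed in Pdcd1 (-0.81), Bcl3 (-0.72), Prdm1 (-0.52), Batf (-0.48), Maf (-0.46), Cd69 (0.39) and Il4 (-2.0). The largest negative differences were Cd109 (-2.96), Mcpt1 (-2.43), Vdr (-2.28), Il21 (-2.25) and Il13 (-2.03), and the largest positive ones Xcl1 (1.04), Ccr7 (0.94), Rgcc (0.93), Zfyve28 (0.91) and Igfbp4 (0.85). The Il21 difference did not pass without isotype H16R replicate 4 (adjusted p = 0.13 in edgeR), the library that stood apart for it, or without block 3x replicate 4 (0.113), and Cd109 was at -1.89 (0.145) without the same isotype library. The calls of Maf, Cd69 and Xcl1 were lost when any of several single libraries was left out. Igfbp4 was lost without block H16R replicate 1 or block 3x replicate 1, and Batf without block 3x replicate 1 or 4.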

How the results depend on the processing

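Among H16R gene calls named in the text, 0 reversed under any alternative run, and calls were lost 8 times with 1 library left out and 6 times under other settings. These were Pdcd1 (8 alternatives), Il4 (without isotype replicate 1), Nfkbib (0.14, without block replicate 4) and, without both libraries numbered 3, Il2rb (0.17), Stim2 (-0.14), Orai2 (-0.10) and Ifih1 (0.21). Calls were gained 3 times with 1 library left out (Fosl1, Tigit and Bcl2) and 14 times in fits of the H16R libraries alone, with or without the replicate block (Fosl1, Fosl2, Hspa1a, Hspa1b, Nfkbie, Cish, Tigit, Cenpf and Irf7). At an absolute log2 fold change of 1 the H16R contrast called 401 genes (383 higher and 18 lower), and the differences from PBS, WT IL-2 and 3x called 488 (447 positive and 41 negative), 188 (110 and 78) and 35 (3 and 32), with fewer genes by construction. Without both H16R libraries numbered 3, chosen after seeing the data, H16R called 2418 genes (1238 higher, 1180 lower) and the difference from PBS 1343 (755 positive, 588 negative). Genes lower with block numbered 1147 with limma on log2(FPKM + 1) and 1199 on log2(FPKM + 0.1), where 2161 and 2337 were higher. Total counts gave 2422 higher and 1261 lower, and all biotypes 2184 and 1481. Negative differences from WT IL-2 numbered 691 without a filter, 855 with all biotypes, 860 and 821 with limma at the larger and smaller pseudocount, and 746 after thinning. Differences from 3x numbered 177 without a filter (61 positive), 75 positive with all biotypes, 490 in DESeq2 (204 positive, 286 negative) and 611 with only the libraries of that interaction (215 positive, 396 negative). The causes were not tested. Leaving out 1 library at a time, H16R calls ranged from 2496 to 4481 (higher 1271 to 2171, lower 1225 to 2310), differences from PBS from 1488 to 3593 (positive 854 to 1825, negative 634 to 1768), from WT IL-2 from 1798 to 3903 (positive 1071 to 1890, negative 727 to 2013) and from 3x from 98 to 692 (positive 45 to 345, negative 53 to 347). The lowest H16R count came without block replicate 3. With the replicate number as a block, H16R called 3859 genes (1940 higher, 1919 lower), and the differences from PBS, WT IL-2 and 3x 2378, 2781 and 285. Of 8 libraries, 0 correlated best with the library of their own number, so the block rests on a number alone. Interaction calls that failed in the most alternatives were those of Mrc1, Lrp1, Pax5, Cfp, Maf, Cd69 and Nfam1, followed by Xcl1 and Spp1. Differences in genes near 1 CPM rest on 18.3 to 51.2 counts a library, and 4 mice a group limit the precision of every value.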
